A study of Mus musculus with 8 samples.

Results

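The genes described here are 9 subunits of the heterotrimeric G protein beta-gamma complex, 4 G beta genes (Gnb1, Gnb2, Gnb4 and Gnb5) and 5 G gamma genes (Gng2, Gng5, Gng10, Gng11 and Gng12), out of 56953 genes in the deposited count table. They were taken by gene symbol. Gnb2 was picked for its fall in cachexia, so its values in this contrast are a description without a test, while the other 8 genes show what the rest of the family did in the same libraries. RNA came from the brown adipose tissue (BAT) of wild-type C57BL/6J mice, male or female, 8 to 10 weeks of age. In the cancer-associated cachexia group (CAC), 3000000 Lewis Lung Carcinoma (LLC) cells in PBS were injected under the skin of the flank, and control mice (CTR) received PBS only. Mice were followed for 21 days, and only tumour-bearing animals were taken as CAC, so the groups differ in the tumour and in all that it brings with it. Each group holds 4 libraries.

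Heterotrimeric G proteins carry the signal of an activated receptor into the cell. A G beta and a G gamma subunit fold into a dimer that stays together for life, binds the G alpha subunit at rest and parts from it when a receptor is engaged, after which alpha and beta-gamma each act on enzymes and channels. G beta is a propeller of WD repeats, and G gamma is a small helical partner whose C-terminus carries a prenyl lipid that holds the dimer on the membrane. In brown fat this system is best known for the response to noradrenaline, in which beta-adrenergic receptors act through Gs on adenylyl cyclase to switch on lipolysis and heat production.

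Libraries held 2454493 to 4827956 counts in CTR and 1823167 to 3392538 in CAC, and mitochondrially encoded genes took 28.5% to 33.8% of them. Levels are given as CPM, the count over the TMM-scaled library total, so that 3 counts, the upper limit for a gene without a read, stand at 0.661 to 1.62 CPM. The defining markers of the labelled tissue were present. Brown adipocyte genes summed to 15854 to 17708 CPM in CTR and 15384 to 17607 CPM in CAC, and no gene on any marker list was at 0 in all libraries. Of 9876 genes tested by edgeR's quasi-likelihood test, 92 had an adjusted p under 0.05, with 73 higher and 19 lower in CAC, which is 0.932% of the genes tested. Leaving out each library in turn gave 42 to 135 genes, a block for replicate number 140 and no filter 351. Adjusted p-values below are those of the edgeR test on all libraries, with Benjamini-Hochberg adjustment over the 9876 genes. They set the difference between groups against the spread between these libraries, estimated in part over all genes, and cover no other variation.

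The sequence before the first annotated exon is shown for Gnb2, the picked gene, and beside it for Gnb1 and Gnb5, the most abundant and the most diverged G beta gene. The stretches are RefSeq promoter windows on GRCm38.p6, cut where GENCODE M21 places an exon, written 5′ to 3′ on the gene's strand, with GC boxes (GGGCGG) and cAMP response element cores (TGACG), searched on both strands, in capitals. The Gnb1 stretch is chr4:155491111-155491360 on the plus strand, the Gnb2 stretch chr5:137533511-137533556 on the minus strand and the Gnb5 stretch chr9:75306038-75306287 on the plus strand.
Gnb1: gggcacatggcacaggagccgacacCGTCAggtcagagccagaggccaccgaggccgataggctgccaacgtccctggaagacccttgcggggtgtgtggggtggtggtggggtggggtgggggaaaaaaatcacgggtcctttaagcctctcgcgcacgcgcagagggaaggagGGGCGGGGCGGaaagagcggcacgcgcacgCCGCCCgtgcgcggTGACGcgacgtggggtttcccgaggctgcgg
Gnb2: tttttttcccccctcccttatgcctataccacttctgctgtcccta
Gnb5: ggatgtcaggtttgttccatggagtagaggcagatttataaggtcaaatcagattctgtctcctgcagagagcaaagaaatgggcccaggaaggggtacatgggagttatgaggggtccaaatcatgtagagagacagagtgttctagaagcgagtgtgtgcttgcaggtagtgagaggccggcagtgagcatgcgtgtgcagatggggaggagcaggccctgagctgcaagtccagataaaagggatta

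RefSeq windows of 250 bases were matched for 7 of the 9 genes, and Gnb4 and Gng11 were not matched. The Gnb1 window held 3 GC boxes and 2 cAMP response element cores, and the Gng5 window held 3 GC boxes. Gng10 had 1 GC box, Gng12 had 2 in the first of its 2 windows and none in the other, and Gng2 had neither motif. The Gnb2 window (chr5:137533307-137533556, of which only the 46 bases above are printed) held neither motif, nor did that of Gnb5. Among 32851 windows of the same length, 32.7% held a GC box and 17.8% a cAMP response element core. GC content was 51.6% for Gnb2, 69.2% for Gnb1 and 50.8% for Gnb5, against a median of 52.4% over all windows. These matches describe letters and were not set against expression.

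Gnb2 (ENSMUSG00000029713.16, chr5:137528127-137533510 on the minus strand of GRCm38), which encodes a broadly expressed G beta subunit, was lower in every CAC library than in any CTR library. It stood at 13.3, 8.52, 6.64 and 8.82 CPM in CTR replicates 1 to 4 and at 2.7, 3.19, 3.52 and 4.53 CPM in CAC replicates 1 to 4. CTR replicate 1 was the highest and the groups did not overlap. CTR libraries averaged 9.32 ± 2.83 CPM and CAC libraries 3.49 ± 0.774 CPM (SD, n = 4 each), with a log2 fold change of -1.37 ± 0.29 (SE). These values chose the gene and carry no test. Groups without overlap occurred in 7.04% of the genes tested. In bulk tissue, fewer cells that express a gene and less of its RNA per cell cannot be told apart.

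Few reads lie behind these levels. Deposited counts on Gnb2 read 37, 31.5, 16 and 40.5 for CTR replicates 1 to 4 and 5, 6.5, 12.5 and 13 for CAC replicates 1 to 4, or 125 against 37 in all. The exact Poisson 95% interval, which covers counting error only, ran from 9.15 to 26 for the 16 reads of CTR replicate 3 and from 6.92 to 22.2 for the 13 reads of CAC replicate 4. The lowest CTR and the highest CAC library are therefore within counting error of each other in raw reads, although they differ in depth. CAC replicate 1, with 5 reads, had an interval of 1.62 to 11.7. Gnb2 passed the low-count filter through the CTR group. That filter needed at least 3.52 CPM in enough libraries, with CPM taken over the library total without TMM scaling. On that scale all 4 CTR libraries but only 2 CAC libraries reached it.

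Some deposited counts hold fractions of reads. Whether the authors' counting split reads between genes, between alignments or both was not given in the sources used here. Gnb2 carried a fraction of 0.5 in CTR replicates 2 and 4 and in CAC replicates 2 and 3. Gigyf1, a gene for a GYF domain protein that joins translational repressors, ends 191 bases from the 3′ end of Gnb2 on the other strand (chr5:137518548-137527935). It carried 0.5 in CTR replicate 2 and in CAC replicates 2 and 3, and Mir6418, a microRNA gene inside Gnb2, carried 0.5 in CTR replicate 4. In all 8 libraries the fractions of Gigyf1 and Mir6418 summed to that of Gnb2 within a tolerance of 1e-06. In 4 of them, however, all of these genes held whole counts, so only the 4 libraries with a fraction on Gnb2 are informative. If reads were split between these genes, an even number of them would leave no fraction, so the fractions do not count the shared reads. Whether the counting used strand was not given either.

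**Figure D1:**
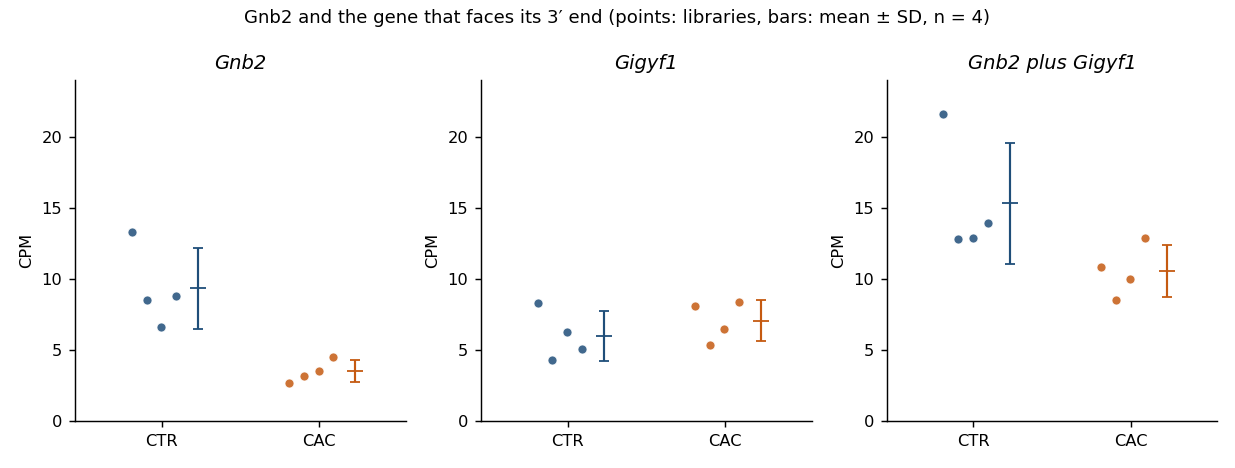
CPM of Gnb2, of Gigyf1 and of both added, with 1 point per library and the mean ± SD (n = 4) beside the points of each group. Gnb2 lies at 6.64 to 13.3 CPM in CTR and 2.7 to 4.53 CPM in CAC, whereas Gigyf1 and the sum of both overlap between the groups.

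Gigyf1 showed no such difference. Its libraries held 23, 15.5, 15 and 23 reads in CTR and 15, 10.5, 21.5 and 24 in CAC. CTR averaged 5.96 ± 1.74 CPM and CAC 7.06 ± 1.44 CPM (SD, n = 4 each), with a log2 fold change of 0.29 ± 0.27 (SE) and an adjusted p of 0.711 in edgeR. Gnb2 held 61.7%, 67%, 51.6% and 63.8% of the reads of both genes in CTR and 25%, 38.2%, 36.8% and 35.1% in CAC. With the counts of both genes added, an alternative chosen after seeing the data, the log2 fold change was -0.49, CTR averaging 15.3 ± 4.24 and CAC 10.5 ± 1.83 CPM (SD, n = 4 each), and the groups overlapped (CTR from 12.8, CAC up to 12.9). How many reads near the shared boundary belong to which gene was not tested. The other genes that overlap Gnb2, Epo and Gm17112, had no reads.

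Of the other 8 genes, 7 passed the low-count filter, and 0 of these 7 had an adjusted p under 0.05 in edgeR's test (background 0.932%), 0 had an unadjusted p under 0.05 (background 12.9%) and 0 had groups without overlap (background 7.04%). DESeq2 and limma-trend likewise called 0 of them. They lay on both sides of no change, with 4 lower and 3 higher in CAC, a median log2 fold change of -0.09 and a range of -0.22 to 0.16, beside a median of -0.00 over all genes tested. Their 95% intervals together spanned -0.64 to 0.82 and each included 0, so changes within a gene's own interval could not be told from no change. The difference between Gnb2 and the others was not tested, because Gnb2 was picked by this contrast.

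**Figure D2:**
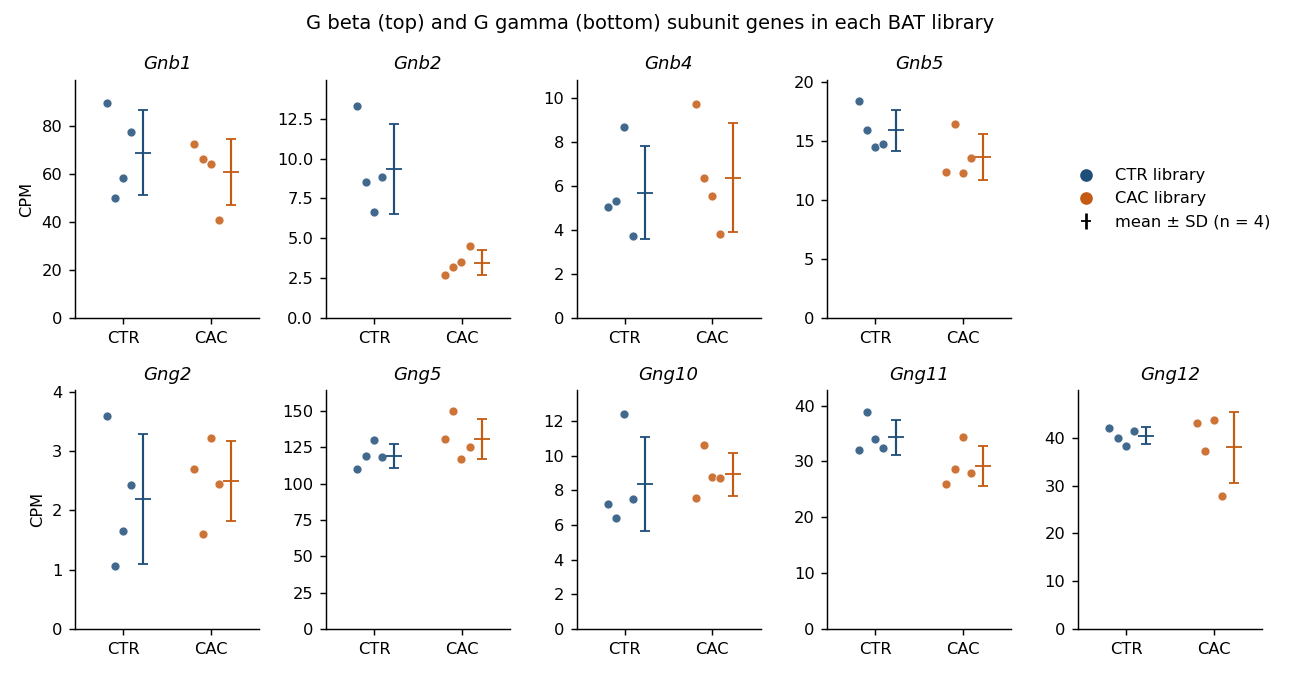
CPM of each of the 9 genes in the 4 CTR and 4 CAC libraries, with the mean ± SD (n = 4) beside the points and a separate scale from 0 for each gene. Only in the panel of Gnb2 do the points of the groups not overlap.

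Gnb1 (ENSMUSG00000029064.16, chr4:155491361-155559269, plus strand), whose product is the G beta of most structural and biochemical work, was the most abundant G beta gene. It stood at 89.6, 50.3, 58.5 and 77.8 CPM in CTR and at 72.4, 66.5, 64.2 and 41.1 CPM in CAC. Both the highest library (CTR replicate 1) and the lowest (CAC replicate 4) stood away from overlapping middle values. Group means were 69.1 ± 17.9 and 61.1 ± 13.7 CPM (SD, n = 4 each), and the log2 fold change of -0.19 (95% interval -0.64 to 0.26) had an adjusted p of 0.766 in edgeR.

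Gnb4 (chr3:32580332-32616585, minus strand) encodes a G beta close in sequence to those of Gnb1 and Gnb2 and was covered by few reads, 132 in all. Its libraries lay at 5.04, 5.33, 8.71 and 3.75 CPM in CTR and at 9.73, 6.38, 5.57 and 3.83 CPM in CAC. With 5.71 ± 2.12 and 6.38 ± 2.47 CPM (SD, n = 4 each), its log2 fold change was 0.16, and its 95% interval of -0.50 to 0.82 was the widest of the 7 (adjusted p 0.89). The sign turned when CAC replicate 1 or CTR replicate 4 was left out.

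Gnb5 (chr9:75306288-75345876, plus strand) encodes the diverged G beta that pairs with RGS proteins of the R7 group in place of a G gamma. It stood at 18.4, 16, 14.5 and 14.8 CPM in CTR and at 12.4, 16.5, 12.3 and 13.6 CPM in CAC. All CAC libraries but replicate 2 lay below the CTR libraries. The mean moved from 15.9 ± 1.75 to 13.7 ± 1.94 CPM (SD, n = 4 each), and the log2 fold change of -0.22 (95% interval -0.60 to 0.15) had an adjusted p of 0.649 in edgeR. Myo5c, a myosin gene that ends 836 bases before Gnb5 on the same strand, was at 19.9 ± 2.28 and 15.7 ± 1.34 CPM, with no overlap between groups (log2 fold change -0.33, adjusted p 0.404).

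Gng5 (chr3:146499807-146505572, plus strand), a G gamma that carries a geranylgeranyl lipid, had the highest level of the 9 genes. Its libraries lay at 110, 119, 130 and 118 CPM in CTR and at 131, 150, 117 and 125 CPM in CAC. The highest was CAC replicate 2 and the groups overlapped. Means were 119 ± 8.21 and 131 ± 13.9 CPM (SD, n = 4 each), and the log2 fold change of 0.13 had the narrowest 95% interval of the G gamma genes, -0.09 to 0.35 (adjusted p 0.661). It was the only gene of the 9 with fractions of reads in all 8 libraries. Gng5c and Gng5-ps, entries named after it, held a fraction in CAC replicate 4 and in CTR replicate 1, and Gng5c stood at 3.01 ± 0.684 and 2.94 ± 0.702 CPM (SD, n = 4 each). Spata1, which lies 53 bases from Gng5 on the other strand, held fractions in CTR replicates 3 and 4 and in CAC replicate 4. Where the fractions of Gng5 came from was not tested, so its level is uncertain by any reads it shares.

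Gng12 (chr6:66896397-67021350, plus strand), also a geranylgeranylated G gamma, varied least of the 9 genes in CTR relative to its mean, at 42.1, 39.9, 38.2 and 41.5 CPM. In CAC it stood at 43.2, 37.2, 43.7 and 27.9 CPM, with replicate 2 just below the CTR range and replicate 4 further below it. Means were 40.4 ± 1.75 and 38 ± 7.36 CPM (SD, n = 4 each), and the log2 fold change of -0.09 (95% interval -0.39 to 0.20) had an adjusted p of 0.842 in edgeR, and without CAC replicate 4 its sign turned.

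Gng11 (chr6:4003904-4008445, plus strand), which differs from most G gamma genes in carrying the shorter farnesyl lipid, stood at 32, 38.9, 34 and 32.4 CPM in CTR and at 25.9, 28.7, 34.3 and 27.9 CPM in CAC. All CAC libraries but replicate 3 lay below the CTR range. From 34.3 ± 3.15 to 29.2 ± 3.58 CPM (SD, n = 4 each), the log2 fold change was -0.22 (95% interval -0.50 to 0.06), and its edgeR adjusted p of 0.529 was the lowest of the 7. Endothelial markers, in cells known to express Gng11, summed to 1257 to 1288 CPM in CTR and 1037 to 1504 CPM in CAC, and their part in the Gng11 values was not tested.

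Gng10 (chr4:59035088-59041903, plus strand) encodes a less studied G gamma and lay at 7.2, 6.39, 12.4 and 7.5 CPM in CTR and at 7.57, 10.6, 8.79 and 8.72 CPM in CAC. CTR replicate 3 was the highest of the 8 libraries. With means of 8.38 ± 2.75 and 8.93 ± 1.27 CPM (SD, n = 4 each), the log2 fold change was 0.13 (95% interval -0.39 to 0.64, adjusted p 0.886). GENCODE M21 also places a readthrough gene, Gm20503, over Gng10 from the neighbouring Dnajc25, which differed by 0.01 on the log2 scale (adjusted p 0.986).

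Gng2 (chr14:19872559-19977627, minus strand), a geranylgeranylated G gamma often used with G beta 1 in biochemical work, did not pass the low-count filter. On that filter's scale it reached 3.52 CPM in 1 CTR library and 0 CAC libraries. It was at 3.6, 1.07, 1.66 and 2.43 CPM in CTR and at 2.7, 1.6, 3.22 and 2.44 CPM in CAC, from 3 to 11 reads a library. The difference between 2.19 ± 1.09 and 2.49 ± 0.68 CPM (SD, n = 4 each) gave an exact two-sided permutation p of 0.686, where 0.0286 is the smallest that 70 assignments allow. No difference was detected. A lincRNA, Gm48283, overlaps it on the other strand.

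**Figure D3:**
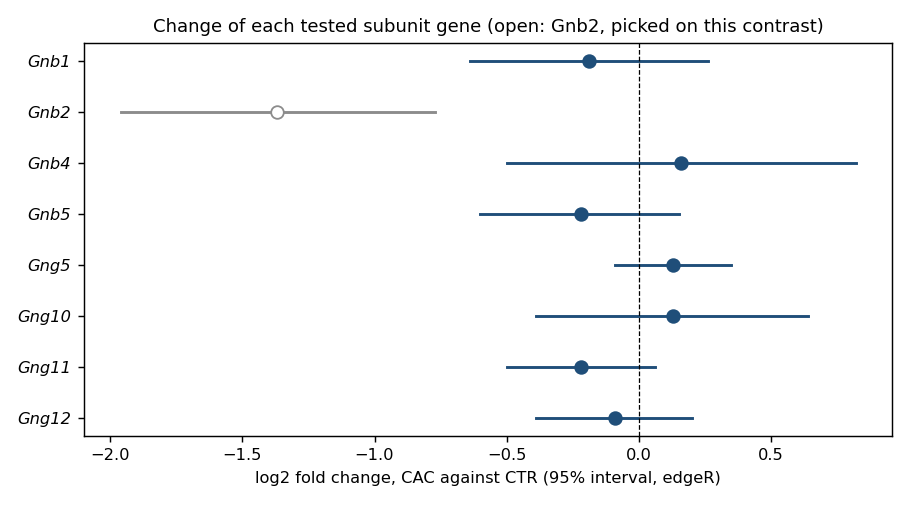
Log2 fold change of CAC against CTR with its 95% interval from edgeR for the 8 genes that passed the low-count filter. The filled points lie between -0.22 and 0.16 with intervals that include 0, and the open point is Gnb2 at -1.37, which was picked on this contrast.

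Between genes, levels were compared per kb of the longest annotated transcript, and as CPM too, because the library kit may read mainly 3′ ends, for which length does not matter. In CTR the order of CPM per kb was Gng5 (49.4), Gng11 (37.4), Gnb1 (22), Gng12 (9.52), Gnb5 (7.56), Gng10 (7.03), Gnb2 (5.01), Gnb4 (0.952) and Gng2 (0.572). Neighbours overlapped in their library values for Gnb5 and Gng10, for Gng10 and Gnb2, and for Gnb4 and Gng2, whereas the other neighbours in this order did not overlap. In CAC, Gng10 (7.49) and Gnb5 (6.51) changed places within their overlap. Gnb2 kept rank 7 at 1.87 CPM per kb, but there its libraries (1.45 to 2.44) were all below those of Gnb5 (5.85 to 7.83) and overlapped those of Gnb4 (0.639 to 1.62). In CPM without length, Gnb2 was rank 6 of 9 in CTR, between Gnb5 and Gng10, and rank 8 in CAC, after Gng10 and Gnb4.

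The make-up of the G beta reads was followed over the 4 genes, although Gnb5 differs from the others in its partner. Gnb2 made up 10.5%, 10.5%, 7.51% and 8.48% of the reads of the 4 G beta genes in CTR and 2.78%, 3.72%, 4.27% and 7.16% in CAC, without overlap. Mean shares came to 9.25 ± 1.51% and 4.48 ± 1.89% (SD, n = 4 each), or 14 ± 2.02% and 6.96 ± 2.68% of reads per kb. The Gnb2 shares reuse the counts by which Gnb2 was picked, so their separation is a description without a test. No other G beta gene had shares that separated the groups. Gnb1 held 68.5 ± 4.9% and 71.6 ± 4.42%, Gnb5 16.2 ± 2.69% and 16.6 ± 3.87%, and Gnb4 6.02 ± 2.91% and 7.36 ± 1.79% (SD, n = 4 each).

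Ratios of Gnb2 to each G beta gene reuse the counts by which Gnb2 was picked and are likewise a description without a test. For every 100 reads on Gnb5 there were 72.5, 52.5, 45.7 and 60.4 on Gnb2 in CTR and 21.7, 21, 29.8 and 33.3 in CAC. For every 100 reads on Gnb1 there were 14.9, 16.7, 11.3 and 11.5 in CTR and 3.73, 5.2, 5.71 and 11 in CAC, with CAC replicate 4 just below the lowest CTR library. Against Gnb4 the ratio overlapped between the groups, from 76.2 to 264 in CTR and from 27.8 to 118 in CAC.

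Summed over genes, the G beta total was 100 ± 20.4 CPM in CTR and 84.6 ± 15.1 CPM in CAC, and without Gnb2 it was 90.7 ± 18 and 81.1 ± 15.9 CPM (SD, n = 4 each). The groups overlapped in both sums. The G gamma total was 205 ± 8.96 and 210 ± 14.7 CPM, and gamma to beta CPM stood at 2.12 ± 0.475 and 2.52 ± 0.375 (SD, n = 4 each), again with overlap. Among G gamma reads, Gng5 took 58.3 ± 1.48% in CTR and 62.4 ± 4.18% in CAC, Gng12 19.8 ± 1.7% and 18.1 ± 3.2%, and Gng11 16.8 ± 1.45% and 14 ± 1.96% (SD, n = 4 each). Gng10 and Gng2 made up the rest, and shares of all 5 overlapped between the groups.

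**Figure D4:**
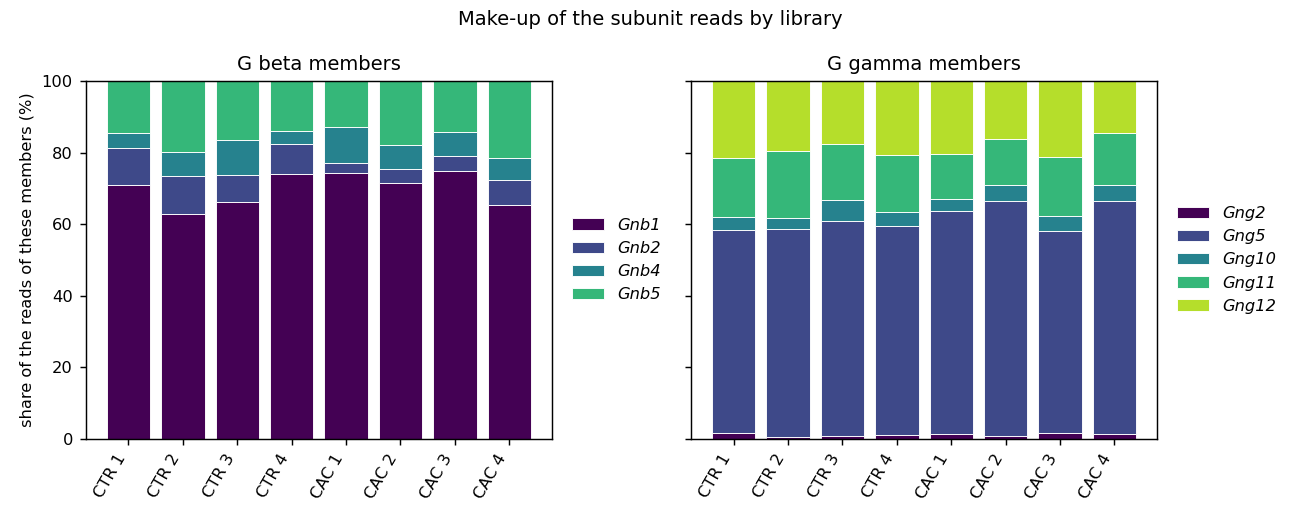
Share of each gene in the reads of the 4 G beta genes (left) and of the 5 G gamma genes (right), in percent, with 1 stacked bar per library. The Gnb2 band spans 7.51% to 10.5% in CTR and 2.78% to 7.16% in CAC, and Gnb1 and Gng5 make up most of their stacks in all 8 libraries.

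Outside these 9, the table held 8 more genes of the family. Gngt2, a G gamma known from cone photoreceptors and immune cells, was the only gene of these to pass the filter, with means of 50.8 ± 7.41 and 61.4 ± 15 CPM (SD, n = 4 each), a difference of 0.26 on the log2 scale (edgeR adjusted p 0.542). It overlaps Abi3, and 3 of its libraries held fractions. Macrophage markers, which summed to 195 to 217 CPM in CTR and 271 to 369 CPM in CAC, moved with the groups, and their part in the Gngt2 values was not tested. Gng7, at 15 and 17 reads over the 4 libraries of each group, Gng3 (5 and 1), Gnb3 (3 and 1), Gng13 (2 and 1.5) and Gng4 (1 and 1) were near the limit of detection. No read fell on Gng8 or Gngt1, which allows up to 0.661 to 1.62 CPM in a library.

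Markers of other cells moved with the groups too. Neutrophil markers (S100a8, S100a9, Retnlg, Cxcr2, Ngp, Ltf, Camp and Csf3r) summed to 6.12 to 6.92 CPM in CTR and, without overlap, to 165 to 431 CPM in CAC. Which cells carried these transcripts, among them S100a9, was not tested, so the sum is not a count of neutrophils. Erythroid markers (6179 to 19269 and 14637 to 44327 CPM) and skeletal muscle markers (1025 to 2615 and 2195 to 4100 CPM) reached higher sums in CAC with some overlap. Their part in the low Gnb2 values was not tested. Brown adipocyte markers, given above, overlapped between groups, as did those of smooth muscle and pericytes (166 to 180 and 133 to 181 CPM), fibroblasts (446 to 529 and 442 to 599 CPM), Schwann cells (282 to 403 and 291 to 442 CPM) and lymphocytes (8.16 to 13.7 and 9.04 to 20.5 CPM).

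The rest of the G protein cycle, together with the 8 further family genes above, made up lists of 106 genes, of which 52 were tested. With edgeR, 0 were called higher and 1 lower (background 0.932%), 30 lay above and 22 below no change, and their median log2 fold change was 0.03 against -0.00 over all genes. With an unadjusted p under 0.05, 3 were higher and 5 lower, where 12.9% of all genes passed. DESeq2 called 0 of the listed genes and limma-trend 1, Pcyox1. The counts that follow are edgeR's.

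The gene called was Pcyox1, in the list of prenylation and CaaX processing, of which 5 of 7 genes were tested. It encodes prenylcysteine oxidase, which degrades the lipid-bearing cysteine left when prenylated proteins such as G gamma are broken down, and so it does not attach the lipid. Its libraries stood at 40.3, 40.7, 33.6 and 32 CPM in CTR and at 17.8, 23.4, 26.4 and 24.1 CPM in CAC, without overlap. It fell from 36.7 ± 4.52 to 22.9 ± 3.62 CPM (SD, n = 4 each), with a log2 fold change of -0.65 ± 0.15 (SE) and an adjusted p of 0.0348 in edgeR. Across 19 alternatives its log2 fold change ran from -0.74 to -0.56 and its adjusted p from 0.00205 to 0.125, and 7 of them ended the call, namely DESeq2, library size alone, and leaving out CAC replicate 1, 2 or 4 or CTR replicate 1 or 2. Fnta, the alpha subunit shared by the enzymes that attach farnesyl and geranylgeranyl (log2 fold change -0.15, adjusted p 0.637), and Zmpste24, a CaaX protease (0.11, 0.831), did not pass.

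Genes that fold and assemble the dimer had 11 of 12 members tested and 0 called (3 with an unadjusted p under 0.05), with a median log2 fold change of 0.04. Pdcl, which encodes the phosducin-like co-chaperone that frees G beta from the CCT chaperonin and hands it to G gamma, gave the most negative value, -0.93 (standard error 0.43, adjusted p 0.363). It stood at 4.32, 4.26, 4.56 and 3.97 CPM in CTR and at 0.541, 4.79, 2.93 and 0.697 CPM in CAC, where replicates 1 and 4 held 1 and 2 reads and replicate 2 was above all CTR libraries. Cct8, a subunit of that chaperonin, had a log2 fold change of 0.27 (adjusted p 0.307), and Ric8a, a chaperone of G alpha, of -0.38 (adjusted p 0.379).

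Among 16 G alpha genes, 8 were tested and 0 called (1 with an unadjusted p under 0.05), with a median log2 fold change of -0.01. Gna11, a G alpha of the Gq group that acts on phospholipase C, stood at 54.2 to 63.7 CPM in CTR and 44.9 to 51.9 CPM in CAC without overlap (log2 fold change -0.28, adjusted p 0.283). Gnao1 (-0.22, adjusted p 0.578) and Gna13 (-0.05, adjusted p 0.918) overlapped between groups.

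Effectors of beta-gamma had 7 of 20 genes tested and 0 called (2 with an unadjusted p under 0.05), and adenylyl cyclases 5 of 10 tested and 0 called (1 unadjusted), with median log2 fold changes of 0.14 and 0.34. Adcy4, a cyclase that beta-gamma stimulates together with Gs, stood at 11.9, 14.9, 21.6 and 14.6 CPM in CTR and at 22.2, 24.5, 20.5 and 22.7 CPM in CAC, with only CTR replicate 3 inside the CAC range (log2 fold change 0.52, standard error 0.18, adjusted p 0.191). Plcb4, a phospholipase C known to respond to Gq more than to beta-gamma (0.36, adjusted p 0.262), Adcy3 (0.40, adjusted p 0.422) and Adcy9 (0.34, adjusted p 0.472) were not called. Grk3, a receptor kinase that beta-gamma recruits to the membrane, had a log2 fold change of -0.21.

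Of the genes that end the signal, receptor kinases and arrestins had 6 of 7 tested and 0 called (0 unadjusted), among them Grk5 (log2 fold change -0.38, adjusted p 0.514) and Arrb2 (0.41, adjusted p 0.541). The RGS partners of G beta 5 had 2 of 6 tested and 0 called (0 unadjusted), Rgs7 (0.04, adjusted p 0.949) and its anchor Rgs7bp (0.01, adjusted p 0.996). Other RGS genes, which speed the GTP hydrolysis of G alpha, and further regulators of G alpha such as Gpsm1 together had 7 of 16 tested and 0 called (0 unadjusted), with a median log2 fold change of -0.14 and values of 0.45 for Rgs4 (adjusted p 0.43), -0.55 for Rgs19 (adjusted p 0.562) and -0.14 for Rgs5 (adjusted p 0.64).

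At the receptor, 3 of 9 adrenergic genes were tested and 0 called (1 with an unadjusted p under 0.05). Adrb1, the beta 1 adrenergic receptor, stood at 64.4, 78.6, 83 and 44.5 CPM in CTR and at 57.3, 45.7, 48.6 and 33.1 CPM in CAC, and CTR replicate 4 fell within the CAC range (log2 fold change -0.55, adjusted p 0.277). Across 19 alternatives its adjusted p ran from 0.00287 to 0.52, and it was called in 3 of them, with no filter, with the replicate block and without CTR replicate 4. Adrb3, the beta 3 receptor typical of adipocytes, had a log2 fold change of 0.14 (adjusted p 0.747), and Adra1a, an alpha 1 receptor, of 0.11 (adjusted p 0.81).

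**Figure D5:**
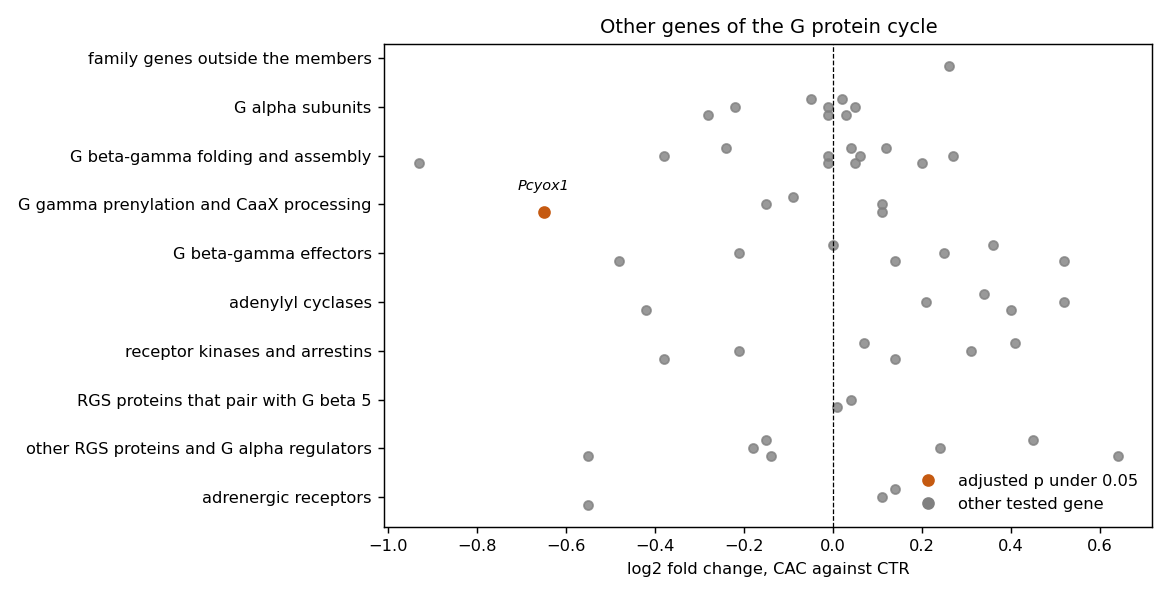
Log2 fold change of CAC against CTR for each tested gene of the lists, with 1 point per gene and 1 line per list, where a gene on several lists appears on each. Pcyox1 at -0.65 is the only point with an adjusted p under 0.05, and the points lie between -0.93 and 0.64.

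Across the 8 libraries, with group means subtracted, the log2 CPM most like that of Gnb2 among 8617 genes of at least 5 CPM belonged to Acadl (Pearson's r 0.99), Dynlrb1 (0.98), Ccdc50 (0.98), Tbc1d9b (0.97) and Gbp2 (0.95). They were chosen as the highest of many, their own log2 fold changes lay between -0.22 and 0.17, and all values come from the same 8 libraries. Of the other subunits, Gnb5 was the most like Gnb2 (0.50), followed by Gnb1 (0.07) and Gng11 (-0.08), and Gnb4 was the least (-0.71). With group means kept, other genes led, Ndufb3 (0.98), Sod2 (0.97), Uqcrc2 (0.97), Pdzd9 (0.96) and Elovl6 (0.95). Their own log2 fold changes were -0.36, -0.32, -0.19, -0.19 and -0.33. Such correlations contain the difference between groups by which Gnb2 was picked, so genes that differ between the groups rank high or low by it. Among the subunits, Gnb5 then stood at 0.70, Gng11 at 0.58, Gnb1 at 0.27 and Gng12 at 0.13. Gng10 (-0.37), Gnb4 (-0.44) and Gng5 (-0.68) were negative. With Gnb2 counted from as few as 5 reads, these correlations are a description only.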

How the data were processed

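One BAT library per mouse was sequenced from 4 CTR and 4 CAC mice (single-end reads, a digital mRNA-seq service), and groups come from the labels. Per the submitters' processing notes, reads were checked with FastQC 0.11.9 and aligned to mm10 with HISAT2 2.2.1. The authors used featureCounts and let reads with several alignments count. What they deposited for 56953 Ensembl genes are expected counts, not normalized, and per library 25.1% to 28.4% of the values above 0 are fractions. The authors also deposited a normalized signal for 24792 genes, made with DESeq2, of which 100% of the values equal the truncated count over 1 factor per library. The annotation release and strand setting were not given in the sources used here. Coordinates are those of GENCODE M21 on GRCm38, to which 91.4% of the IDs match without version, and promoter windows are RefSeq's on GRCm38.p6. Of the matched IDs, 0.0673% have the same version as in M21 and 88.7% a version 1 higher. Gene borders, gaps and overlaps given here may therefore differ from those used in the counting.

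Counts were rounded to whole reads and tested with edgeR 4.0.16 in R 4.3.3, with filterByExpr (10 counts), TMM, the robust quasi-likelihood test without covariates and Benjamini-Hochberg adjustment over 9876 genes at 0.05, after a test on simulated data. CPM use the TMM library size, except in the low-count filter, and log2 CPM a prior count of 2. Gng2 was compared by an exact permutation test (scipy 1.17.1). Intervals and limits from 3 counts cover counting error only.

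The genes named are the 9 members, genes that overlap or flank them or are named after them, and the other genes of the family. To these come the 3 genes with the smallest p of each list. The 5 genes most like Gnb2 are named with group means subtracted and again with them kept. Abi3, which overlaps Gngt2, Dnajc25, beside Gng10, and Gpsm1, an example from its list, are named too. The members and lists were chosen with earlier results of these data known. Alternatives were DESeq2 1.42.0, limma-trend (limma 3.58.1) on log2 of the deposited signal plus 1, upper quartile normalization, library size alone, no filter, at least 10 reads in every library, dropped decimals, library sizes without mitochondrially encoded genes, counts with overlapping genes and named copies added, the replicate block and each library left out.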

Additional observations from a re-analysis of the deposited data

Results flagged for a closer look

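In 38 groups of 4 libraries, the gap of the highest or lowest library to the rest was set against its range, and 2 groups stood out, where chance, at about 1 in 20, gives 1.9. Brown adipocyte markers summed to 17708 CPM in CTR replicate 4, against 15854 to 16052 CPM in the other CTR libraries. Schwann cell markers summed to 442 CPM in CAC replicate 1, against 291 to 304 CPM in the other CAC libraries. No subunit gene had a library that stood apart in this way.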

How the results depend on the processing

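Apart from the sum with Gigyf1, Gnb2 stayed lower in CAC in the 17 alternatives that gave it a value, with a log2 fold change of -1.52 to -1.18, a range that leaving out each library spans. One of these (-1.38) adds the genes that overlap Gnb2, which hold at most 0.5 read in a library and so could hardly move it. With at least 10 reads in every library Gnb2 itself was removed. Adding Gigyf1, chosen after seeing the data, gave -0.49. For the 7 other tested subunits, 0 were called in any of 18 alternatives (lowest adjusted p = 0.395, Gng11), and the sign changed for Gnb4 without CAC replicate 1 or CTR replicate 4 and for Gng12 without CAC replicate 4. Gng2 had a log2 fold change of 0.22 without the filter (adjusted p = 0.897) and of 0.24 with overlapping genes and named copies added (adjusted p = 0.847), and DESeq2 gave 0.22 with no adjusted p.

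The count of genes called, 92, became 351 with no filter and 140 with the replicate block, 84 of which are shared with the 92. It ran from 42 to 135 when each library was left out, the lowest without CTR replicate 1, with 60 without CAC replicate 3. DESeq2 called 103, 72 of them shared. Replicate numbers were not taken to pair the mice, since deviations of libraries with the same number correlated at 0.0309, -0.0231, 0.0281 and 0.0355, and 2 of 4 correlated best with their own number. In the replicate block Gnb2 had -1.32, and of the lists only the call of Adrb1 was added. The cause of these shifts was not tested. Depth limits the low genes most. Gnb2, Gnb4, Gng10 and Gng2 held 161, 132, 197 and 55 reads over all libraries after rounding, so that a few reads move their values.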
